A study of Mus musculus with 15 samples.

Results

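The lipins are Lpin1, Lpin2 and Lpin3, a family of 3 genes among the 53801 genes counted in cultures of adult neural stem cells (aNSCs). Lpin3 was chosen by its measured counts, which rose between the culture groups, and Lpin1 and Lpin2 entered as its paralogs. The question was whether Lpin3 changed alone or together with them. The values of Lpin3 are therefore given as a description with no test, and only Lpin1 and Lpin2 were tested.

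Lipins are magnesium-dependent phosphatidate phosphatases, enzymes that take the phosphate off phosphatidic acid and leave diacylglycerol. Diacylglycerol is the precursor of triacylglycerol, the fat stored in lipid droplets, and of phosphatidylcholine and phosphatidylethanolamine, the main membrane phospholipids. Lpin1 also works in the nucleus as a coactivator of fatty acid oxidation genes, and its entry there is held back by mTOR signalling. Loss of Lpin1 in the mouse gives the fatty liver dystrophy mutant, which has fat tissue and nerve defects, while Lpin3 is the least studied member.

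The aNSCs were taken from the subventricular zone of mice at 2 months of age on a C57BL6/J-129sv background and grown in suspension. The 15 cultures carried the Rosa26-CreERT2 transgene, which is active in most cell types, and a floxed Trrap gene, which encodes an adaptor of histone acetyltransferase complexes. 4-hydroxytamoxifen (4-OHT) switches on CreERT2, which then cuts the floxed segment out. Fl/+ mice 19, 24, 26, 35 and 36, with 1 floxed allele, each gave an untreated culture and a 4-OHT culture, in which 1 copy of Trrap could be removed. Fl/Fl mice 27, 28, 29, 37 and 39 each gave a 4-OHT culture, in which both copies could be removed. The labels give 5 days of treatment for the 4-OHT cultures, while the paper's methods describe 3 days with 4-OHT and then 2 days without it. By the labels each group has 3 male and 2 female cultures. No Fl/Fl culture without 4-OHT was analysed here. A difference between the Fl/Fl mice and the Fl/+ mice that preceded 4-OHT therefore cannot be told apart from the deletion. In the Fl/+ cultures 4-OHT itself, active CreERT2 and the removal of 1 copy of Trrap came together and cannot be told apart. Differences given as after 4-OHT hold all of these.

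The 3 genes lie on different chromosomes of the mouse genome (GRCm38). Lpin1 (ENSMUSG00000020593) spans chr12:16535669-16610966 on the minus strand. Lpin2 (ENSMUSG00000024052) spans chr17:71182560-71249817 on the plus strand. Lpin3 (ENSMUSG00000027412) spans chr2:160880670-160906002 on the plus strand and is the shortest of them. The 250 bases before the first RefSeq start of each gene are shown because the members were compared for joint change, and the start region is where shared sequence would be read first. The sequences (RefSeq, GRCm38.p6) overlap no annotated exon and run 5′ to 3′ on the strand of the gene. For Lpin2 the first RefSeq start lies inside the span given above, whose outermost transcript in the GENCODE annotation begins further upstream. Capitals mark a GC box (GGGCGG or its reverse complement CCGCCC), the motif of Sp1-type factors, or an E-box (CACGTG), the motif of Myc-type factors.
Lpin3 (chr2:160880420-160880669, plus strand): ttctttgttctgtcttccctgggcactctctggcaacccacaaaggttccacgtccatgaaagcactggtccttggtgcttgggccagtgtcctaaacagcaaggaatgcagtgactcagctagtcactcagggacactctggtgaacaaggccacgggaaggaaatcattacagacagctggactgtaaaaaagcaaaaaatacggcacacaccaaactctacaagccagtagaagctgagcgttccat
Lpin2 (chr17:71183282-71183531, plus strand): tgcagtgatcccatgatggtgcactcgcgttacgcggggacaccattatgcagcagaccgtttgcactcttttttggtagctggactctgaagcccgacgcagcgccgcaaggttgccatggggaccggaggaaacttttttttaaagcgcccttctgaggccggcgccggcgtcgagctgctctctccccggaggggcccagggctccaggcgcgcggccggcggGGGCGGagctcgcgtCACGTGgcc
Lpin1 (chr12:16610967-16611216, minus strand): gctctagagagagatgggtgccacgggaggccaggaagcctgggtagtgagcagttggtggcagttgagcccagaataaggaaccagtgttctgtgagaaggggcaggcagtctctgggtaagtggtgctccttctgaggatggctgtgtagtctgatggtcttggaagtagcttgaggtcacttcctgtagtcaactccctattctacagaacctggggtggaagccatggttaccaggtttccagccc

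Of these 3 windows only that of Lpin2 held a match, with the GC box 24 bases and the E-box 9 bases before the start. The bases directly after this start were found in no GENCODE transcript of Lpin2. Those after every other lipin start were found in a transcript of their gene. Over 32851 windows of this length before all RefSeq starts, further starts of a gene included, 32.7% held a GC box and 6.02% held this E-box. Both strands were read, and first starts alone were not counted apart. GC content was 49.6% in the window of Lpin3, 65.2% in that of Lpin2 and 54.8% in that of Lpin1. Lpin3 has a second RefSeq start inside the gene with a GC box 111 bases upstream of it, and Lpin2 has 2 further starts, one with a GC box 79 bases upstream and one with no match. Both windows with a GC box overlap annotated exons (Lpin3 and the antisense Gm16751 in the first, Lpin2 in the other), and the boxes are shown with 12 bases on either side.
Lpin3, second start (chr2:160888045-160888074, plus strand): accacgggacggGGGCGGggtcttctcgaa
Lpin2, second start (chr17:71183887-71183916, plus strand): cctccgagccgcGGGCGGcgcgcccgggga
A match describes the letters only. The counts are per gene, and which of the annotated starts was in use was not analysed here.

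Assigned counts ranged from 25.7 M to 32.2 M a library. Levels are given as CPM, counts scaled to the same effective library size. The floor used here for detection was 3 counts. Divided by the assigned counts, and not by the effective library size, this floor is 0.0932 to 0.117 CPM. Trrap, the targeted gene, averaged 190 ± 14.3 CPM in untreated Fl/+, 164 ± 26.4 CPM in Fl/+ 4-OHT and 104 ± 24.2 CPM in Fl/Fl 4-OHT cultures (SD, n = 5 each). It was lower in Fl/Fl than in Fl/+ 4-OHT cultures by a log2 fold change of -0.64 (SE 0.16, edgeR adjusted p = 0.0115), although the highest Fl/Fl culture (29, 142 CPM) overlapped the Fl/+ group. These counts cover the whole gene, exons outside the floxed segment included. The library labelled Fl/Fl 39, female, had Xist at 0.313 CPM and 2 Y-linked genes at 115 CPM together, against its label. The library labelled Fl/+ 36 4-OHT, male, had Xist at 74.7 CPM beside the Y-linked genes at 120 CPM. All 10 neural stem cell markers, all 8 astrocyte markers and 9 of 10 oligodendrocyte markers averaged at least 1 CPM over all libraries, but only 1 of 8 microglial markers did, with a sum over that list of 2.10 to 7.85 CPM. In such bulk RNA, fewer cells of a type and less RNA per cell cannot be told apart.

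Lpin3 was the lowest of the family in untreated cultures and rose in 2 steps. In untreated Fl/+ cultures it stood at 7.92, 5.41, 3.99, 6.50 and 5.04 CPM in mice 19, 24, 26, 35 and 36. In Fl/+ 4-OHT cultures of the same mice it stood at 17.4, 22.5, 15.1, 18.1 and 14.8 CPM. In Fl/Fl 4-OHT cultures it stood at 45.9, 42.2, 41.8, 47.5 and 38.6 CPM in mice 27, 28, 29, 37 and 39. Every Fl/+ 4-OHT culture lay above every untreated culture and below every Fl/Fl culture. The means were 5.77 ± 1.501, 17.6 ± 3.10 and 43.2 ± 3.56 CPM (SD, n = 5 each). The raw counts behind them were 114 to 219, 382 to 711 and 1111 to 1479 reads per library, far above the floor.

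Between Fl/+ 4-OHT and untreated cultures Lpin3 had a log2 fold change of 1.61 (SE 0.197), which is 3.05-fold. It was higher after 4-OHT in 5 of 5 mice, by 2.19-fold in mouse 19 up to 4.16-fold in mouse 24. Between Fl/Fl and Fl/+ 4-OHT cultures the log2 fold change was 1.31 (SE 0.121), or 2.48-fold. Between Fl/Fl 4-OHT and untreated cultures it was 2.92 (SE 0.172), or 7.55-fold. These comparisons share libraries pairwise, the Fl/+ 4-OHT libraries being on opposite sides of the first and the second, so they are set side by side and not counted as separate evidence. A rising order of untreated, Fl/+ 4-OHT and Fl/Fl 4-OHT cultures with no overlap was found in 46 of 14668 genes tested in each, or 0.314%. Lpin3 was chosen for this rise, and nothing is read from the share. In single comparisons, groups did not overlap in 22.6% of genes between Fl/Fl and Fl/+ 4-OHT cultures and in 12.0% after 4-OHT, 6.52% as higher and 5.47% as lower. Without the library labelled Fl/Fl 39 the log2 fold change against Fl/+ 4-OHT cultures was 1.34, and without Fl/+ 4-OHT 36 it was 1.24. Leaving out any 1 library moved it between 1.24 and 1.41, and the 4-OHT difference between 1.499 and 1.748.

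**Figure D1:**
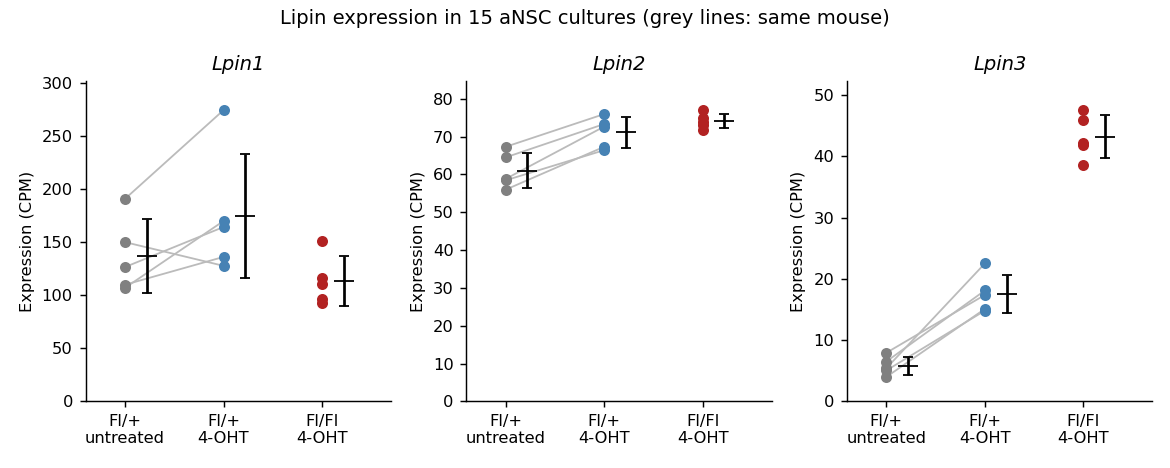
Expression of Lpin1, Lpin2 and Lpin3 (CPM, linear axes from 0) in each of the 15 cultures, by group. Points are cultures, grey lines join the 2 cultures of one mouse, and bars give the mean ± SD (n = 5); Lpin3 lies at 3.99 to 7.92 CPM in untreated and at 38.6 to 47.5 CPM in Fl/Fl 4-OHT cultures with no overlap, whereas Lpin1 overlaps between all groups and Lpin2 stays between 56.0 and 77.0 CPM.

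Lpin1, the best known family member, did not follow that course. In untreated cultures it stood at 150, 191, 126, 107 and 110 CPM in mice 19, 24, 26, 35 and 36. In the Fl/+ 4-OHT cultures of these mice it stood at 128, 274, 164, 170 and 136 CPM. In Fl/Fl 4-OHT cultures it stood at 92.3, 116, 151, 111 and 96.1 CPM in mice 27, 28, 29, 37 and 39. All 3 groups overlapped, culture 24 being the highest in both Fl/+ groups and culture 29 the highest Fl/Fl culture. The means were 137 ± 34.6, 174 ± 58.6 and 113 ± 23.2 CPM (SD, n = 5 each).

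Lpin1 was lower in Fl/Fl than in Fl/+ 4-OHT cultures, opposite in direction to Lpin3. The log2 fold change was -0.61 (SE 0.209, edgeR adjusted p = 0.0452), and an exact permutation test (two-sided, log2(CPM + 0.5), 252 arrangements) gave p = 0.0317, the smallest possible p being 0.00794. Of the 2 members open to testing it was the only one to pass in this comparison, in which 31.7% of the 15036 genes tested passed, 15.0% as lower. The call depended on single libraries and was lost in 7 of 10 fits that each left out 1 library, and without Fl/+ 4-OHT 24 the log2 fold change shrank to -0.40 (edgeR adjusted p = 0.0731). Without the library labelled Fl/Fl 39 it was -0.56 (edgeR adjusted p = 0.0904) and without Fl/+ 4-OHT 36 it was -0.70 (edgeR adjusted p = 0.0346).

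Lpin1 was higher in the Fl/+ 4-OHT culture than in the untreated one in 4 of 5 mice. The ratio was 0.851-fold in mouse 19 and 1.24-fold to 1.59-fold in the others. The log2 fold change of 0.35 (SE 0.222) did not pass (edgeR adjusted p = 0.319), nor did the exact permutation test (p = 0.222) or the exact sign-flip test over the 5 mice (p = 0.125, with a smallest possible p of 0.0625). It ranged from 0.14 without Fl/+ 4-OHT 24 to 0.50 without the untreated culture of mouse 24 in the fits without 1 library. Fl/Fl 4-OHT against untreated cultures gave -0.26 (SE 0.181, edgeR adjusted p = 0.304, exact permutation p = 0.254), with a range of -0.38 to -0.11 without 1 library, the smallest difference being that without the untreated culture of mouse 24.

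Lpin2 was the steadiest of the 3 and moved little. It stood at 58.4, 58.8, 56.0, 67.3 and 64.5 CPM in the untreated cultures of mice 19, 24, 26, 35 and 36. After 4-OHT it stood at 66.4, 72.6, 67.3, 76.0 and 73.3 CPM in the same mice. The Fl/Fl 4-OHT cultures 27, 28, 29, 37 and 39 had 73.2, 74.8, 71.8, 73.9 and 77.0 CPM. Each group overlapped the next one, but every Fl/Fl culture lay above every untreated culture. The means were 61.0 ± 4.71, 71.1 ± 4.10 and 74.1 ± 1.93 CPM (SD, n = 5 each), and the coefficient of variation was 7.72%, 5.76% and 2.60%, against 25.3%, 33.6% and 20.5% for Lpin1 and 26.0%, 17.6% and 8.23% for Lpin3.

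Fl/Fl and Fl/+ 4-OHT cultures did not differ in Lpin2 beyond their spread, with a log2 fold change of 0.07 (SE 0.0565, edgeR adjusted p = 0.338, exact permutation p = 0.198). It ranged from 0.038 without Fl/+ 4-OHT 19 to 0.084 when 1 library was left out, and was 0.045 without Fl/+ 4-OHT 26. After 4-OHT Lpin2 was higher in 5 of 5 mice by 1.13-fold to 1.24-fold. The log2 fold change of 0.22 (SE 0.0773) did not pass (edgeR adjusted p = 0.0785), while the exact permutation test gave p = 0.0159 and the exact sign-flip test its smallest possible p of 0.0625. With mice entered as a replicate block, since both groups came from them, the same difference passed at 0.23 (edgeR adjusted p = 0.0344). In this comparison 25.7% of the 14821 genes tested passed with the block and 13.8% without it, the latter as 7.34% higher and 6.45% lower. Between Fl/Fl 4-OHT and untreated cultures Lpin2 rose by 0.29 on the log2 scale (SE 0.0681, 1.23-fold, edgeR adjusted p = 0.00772), with no overlap between the groups (exact permutation p = 0.00794, the smallest it can give). Of the 15032 genes tested in that comparison 30.7% passed and 23.1% did not overlap.

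**Figure D2:**
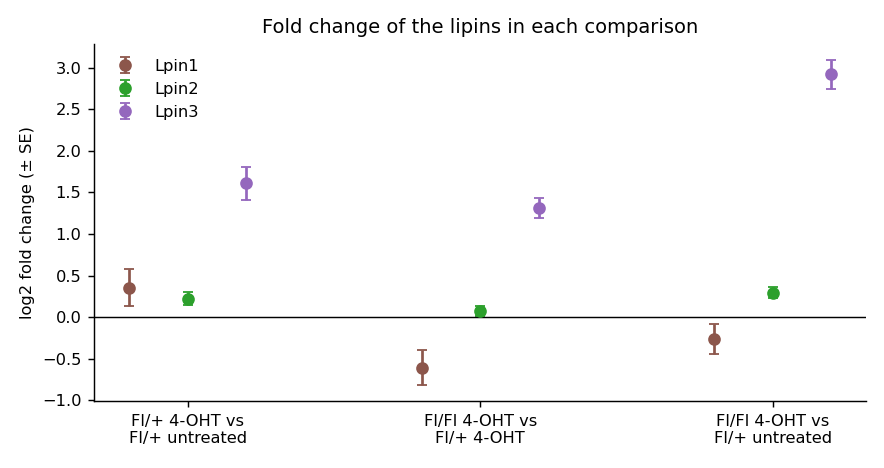
Fitted log2 fold changes of Lpin1, Lpin2 and Lpin3 in the 3 comparisons, with the standard error of each as a bar (5 libraries a group) and a line at 0. Lpin3 lies at 1.31 to 2.92, Lpin2 at 0.07 to 0.29, and Lpin1 at 0.35 after 4-OHT and at -0.61 and -0.26 in the comparisons of Fl/Fl cultures.

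Neither paralog had a difference that matched Lpin3 in both direction and size. Lpin1 went the other way between Fl/Fl and Fl/+ 4-OHT cultures, and the Lpin2 differences had the direction of Lpin3 at log2 fold changes of 0.07 to 0.29. Over the 15 libraries log2(CPM + 0.5) of Lpin2 and Lpin3 had a Pearson r of 0.83, Lpin1 and Lpin3 one of -0.18, and Lpin1 and Lpin2 one of -0.15. These 15 points share mice and fall into 3 groups, so the correlations describe them and carry no test.

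To set the members against each other, CPM were divided by the merged exon length of each gene, 9665 bases for Lpin1, 12233 for Lpin2 and 3694 for Lpin3. In untreated cultures the level per kb averaged 14.2 ± 3.58 for Lpin1, 4.99 ± 0.385 for Lpin2 and 1.56 ± 0.406 for Lpin3 (CPM per kb, SD, n = 5). In Fl/Fl 4-OHT cultures it averaged 11.7 ± 2.40 for Lpin1, 6.06 ± 0.158 for Lpin2 and 11.7 ± 0.963 for Lpin3, so that on this scale Lpin3 overlapped with Lpin1 in range (10.4 to 12.9 against 9.55 to 15.6) and exceeded Lpin2 in every culture. Lpin3 made up 7.63% ± 1.95 of the summed lipin level per kb in untreated, 16.9% ± 2.02 in Fl/+ 4-OHT and 39.8% ± 3.82 in Fl/Fl 4-OHT cultures. The share of Lpin1 was 67.7% ± 6.09, 62.1% ± 5.33 and 39.5% ± 5.09, and that of Lpin2 24.7% ± 4.99, 21.0% ± 3.89 and 20.7% ± 2.07.

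The summed level of the 3 lipins was 20.7 ± 3.46 CPM per kb in untreated, 28.6 ± 6.92 in Fl/+ 4-OHT and 29.5 ± 2.33 in Fl/Fl 4-OHT cultures. The Fl/+ and Fl/Fl 4-OHT groups overlapped in this sum (23.3 to 40.4 against 26.7 to 32.8), while its makeup differed. The sum also depends on the length used, as may the order of these 2 groups in it, and it was not computed with other lengths. The shares depend on the length used, since merged exons join all annotated transcripts. With the longest transcript (5581, 5640 and 3470 bases) Lpin3 held 27.3% in Fl/Fl cultures, just under Lpin2 with 28.8%, and with the coding length (2772, 2793 and 2574 bases) it held 20.1%. Under each of these lengths the share of Lpin3 was lowest in untreated and highest in Fl/Fl cultures.

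**Figure D3:**
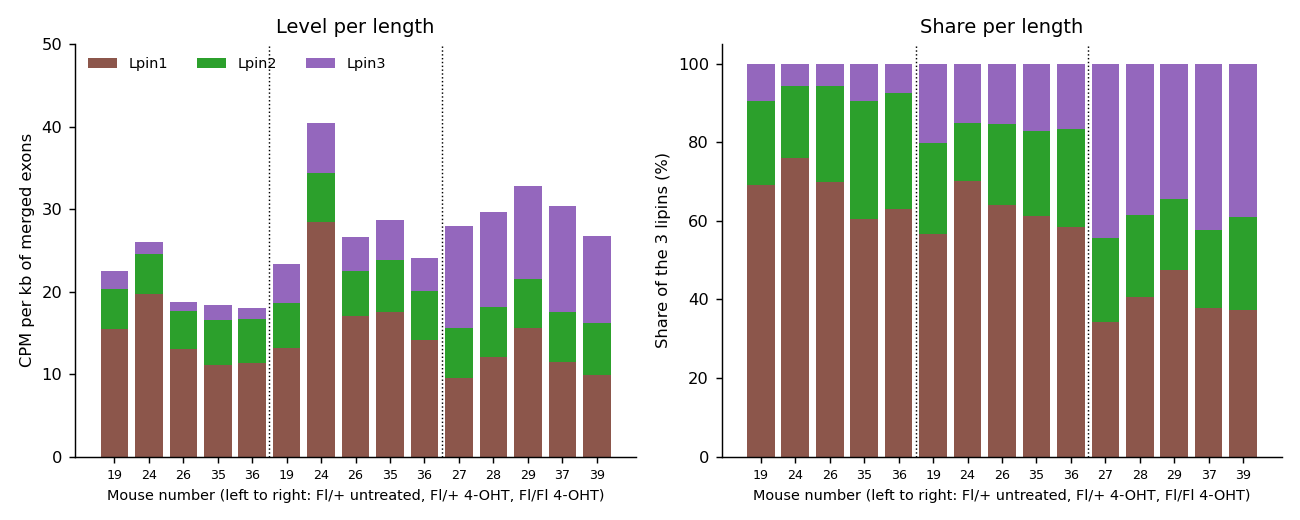
Level of the 3 lipins per kb of merged exons (left, CPM per kb, stacked from 0) and the share of each in their sum (right, percent) in each of the 15 cultures, ordered by group and mouse number. The Lpin3 segment is 5.63% to 9.61% of the sum in untreated cultures and 34.5% to 44.5% in Fl/Fl 4-OHT cultures, and culture 24 of the Fl/+ 4-OHT group has the highest sum.

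The genes whose log2(CPM + 0.5) ran closest to Lpin3 over the 15 libraries, of 13333 genes, were Camkv (r = 0.978), Hmcn2 (0.972), Slc12a5 (0.967), Tctn2 (0.967) and Disp2 (0.962). Slc12a5 encodes the neuronal potassium-chloride cotransporter KCC2, Tctn2 a protein of the ciliary transition zone and Disp2 a relative of the Hedgehog release protein Dispatched. Since they were picked for likeness to Lpin3 over these libraries, the order of their group means follows from the choice, Disp2 going from 18.9 to 50.8 and 106 CPM and Camkv from 2.95 to 11.7 and 27.5 CPM. Closest to Lpin2 were Wnk1 (0.961), Thada (0.954), Mgat5 (0.953), Atf1 (0.953) and Oxr1 (0.942).

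Closest to Lpin1 were the glycolytic genes Gapdh (0.955) and Aldoa (0.935), the pentose phosphate enzyme Tkt (0.897), the acetyl-CoA synthetase Acss2 (0.896) and Rest (0.893). Gapdh has many near-identical copies, reads that map to several places were not counted, and it stood at only 6.10 to 9.93 CPM in the group means, so its value is uncertain, as is that of Aldoa, whose symbol stands on more than one gene ID. None of the 5 genes closest to one lipin was among the 5 closest to another.

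The nearest protein-coding genes did not share the course of Lpin3. Emilin3, on the opposite strand with its 3′ end 434 bases beyond the end of Lpin3, and Zhx3, 7671 bases away on the other side, passed in no comparison, nor did Myom1 and Emilin2 beside Lpin2 or Ntsr2 beside Lpin1. The antisense gene Gm16751 inside Lpin3 had at most 4 counts in any library, and Gm26561, which overlaps Lpin2 on its strand, had 0 counts in all of them. Trib2, the nearest protein-coding gene on one side of Lpin1 at 718746 bases, was lower in Fl/Fl than in Fl/+ 4-OHT cultures by a log2 fold change of -0.45 (SE 0.114, edgeR adjusted p = 0.0116).

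The other genes of lipin metabolism were read from 9 lists with 101 genes. Between Fl/Fl and Fl/+ 4-OHT cultures 35 of the 91 that could be tested passed, 19 as higher and 16 as lower, or 38.5% beside 31.7% of all genes. After 4-OHT 17 of 91 passed, 3 as higher and 14 as lower, or 18.7% beside 13.8%, and with mice as the block 27 passed, or 29.7% beside 25.7% of all genes. Between Fl/Fl 4-OHT and untreated cultures 44 of 92 passed, 20 as higher and 24 as lower, or 47.8% beside 30.7%. The median log2 fold change of the listed genes was 0.07, -0.09 and -0.14 in the 3 comparisons, beside 0.02, -0.01 and 0.00 for all genes tested.

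Among the regulators of lipin, Ctdnep1, the phosphatase that activates it by removing phosphate, and its subunit Cnep1r1 passed in no comparison, with log2 fold changes of 0.14 and 0.20 between Fl/Fl and Fl/+ 4-OHT cultures. In the fits without 1 library that of Ctdnep1 ranged from 0.067 without Fl/+ 4-OHT 36 to 0.20 and that of Cnep1r1 from 0.11 without Fl/+ 4-OHT 26 to 0.24. Mlst8, a subunit of mTOR complexes, was the only 1 of the 5 regulators to pass there, beside 31.7% of all genes, higher by 0.64 (53.3 to 82.2 CPM, edgeR adjusted p = 0.000242). After 4-OHT, where 13.8% of all genes passed, 0 of 5 did with edgeR or DESeq2, with 1 at an unadjusted p under 0.05.

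Of 10 tested genes upstream of lipin, which make glycerol 3-phosphate and acylate it to phosphatidic acid, 3 rose between Fl/+ 4-OHT and Fl/Fl cultures and 0 fell with edgeR (2 lower at an unadjusted p under 0.05, and 3 higher and 1 lower with DESeq2), beside 31.7% of all genes called in either direction. Gpd1, the glycerol 3-phosphate dehydrogenase of the cytosol, rose from 49.98 to 118 CPM, a log2 fold change of 1.25 (SE 0.145, edgeR adjusted p = 0.000222). The acyltransferases Agpat3 and Agpat1 rose by 0.63 and 0.30, but the call of Agpat1 was kept in only 1 of 10 fits without 1 library. Gpam, which catalyses the first acylation at mitochondria, had a difference of -0.01 and Agpat2 one of -0.43, and neither passed. That of Agpat2 ranged from -0.61 to -0.24 in the fits without 1 library, the latter without Fl/+ 4-OHT 24. After 4-OHT 0 of these 10 passed with edgeR (unadjusted p under 0.05 in 1 that was higher and 1 that was lower, and 1 higher with DESeq2), beside 13.8% of all genes. Gpam had a difference of 0.33 that did not pass (edgeR adjusted p = 0.0623), but it passed in 4 of 8 other settings and in 1 of 10 fits without 1 library. With mice as the block 2 of the 10 passed, Gpam as higher by 0.35 (edgeR adjusted p = 0.0267) and Agpat3 as lower by 0.32 on the log2 scale (edgeR adjusted p = 0.0499), beside 25.7% of all genes.

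Enzymes that reach the same lipids by other routes moved in both directions. Of the 5 membrane-bound lipid phosphate phosphatases, which work without magnesium, Plpp5 rose in Fl/Fl against Fl/+ 4-OHT cultures by 0.43 (29.5 to 39.2 CPM, edgeR adjusted p = 0.005) and Plpp2 rose after 4-OHT by 1.20 from a low level (1.21 to 2.80 CPM, adjusted p = 0.02). Each was the only 1 of the 5 to pass in its comparison, beside 31.7% and 13.8% of all genes, while with mice as the block, where 25.7% of all genes passed, 4 of 5 passed after 4-OHT, 3 of them as lower. Of 13 phospholipases D, which release phosphatidic acid, and diacylglycerol kinases, which turn diacylglycerol back into it, 3 rose and 4 fell in Fl/Fl against Fl/+ 4-OHT cultures (53.8%, beside 31.7% of all genes). Dgkk rose from 12.2 to 32.7 CPM (log2 fold change 1.44) and Pld6, a mitochondrial member at under 2 CPM, by 1.58, whereas Dgkh fell by 0.61 and Dgkz by 0.48 on the log2 scale. After 4-OHT 2 of 13 passed (15.4%, beside 13.8%), Pld1 and Dgkb, which fell by 0.54 and 0.30 on the log2 scale, calls kept in 6 and 2 of 10 fits without 1 library, and 0 rose with edgeR or DESeq2 (1 at an unadjusted p under 0.05).

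Downstream of lipin, 2 of 11 tested genes of triacylglycerol synthesis and lipid droplets passed between Fl/+ 4-OHT and Fl/Fl cultures, or 18.2% beside 31.7% of all genes. Dgat1, which makes triacylglycerol from diacylglycerol, fell by 0.30 (33.0 to 26.6 CPM, edgeR adjusted p = 0.0255) and the droplet protein gene Fitm2 rose by 0.39. Dgat2 differed by 0.14 without passing, and the difference turned to -0.09 without Fl/Fl 37 and was 0.29 without Fl/Fl 27. Mgll, which cleaves monoacylglycerol, was the only 1 of the 11 to pass after 4-OHT (9.09%, beside 13.8% of all genes) and fell by 0.78. Of the 11 genes tested for phosphatidylcholine and phosphatidylethanolamine synthesis, 3 rose and 3 fell in Fl/Fl against Fl/+ 4-OHT cultures (54.5%, beside 31.7%). The 3 that fell were Pcyt1a and Pcyt2, the rate-setting enzymes of the 2 branches, by 0.39 and 0.76, and Selenoi, which joins ethanolamine to diacylglycerol, by 0.49. Pemt, which methylates phosphatidylethanolamine to phosphatidylcholine, rose by 0.45. After 4-OHT 2 of 10 passed, beside 13.8% of all genes, Pcyt1b, which fell by 0.78, and Chpt1, the enzyme that joins choline to diacylglycerol, which fell by 0.60.

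One list joined the CDP-diacylglycerol branch, which uses phosphatidic acid that lipin has not cleaved, with Ptdss1, Ptdss2 and Pisd, which make phosphatidylserine from other phospholipids or turn it into phosphatidylethanolamine. Of its 9 tested genes 4 rose and 0 fell between Fl/+ 4-OHT and Fl/Fl cultures with edgeR (1 lower at an unadjusted p under 0.05, and 3 higher and 0 lower with DESeq2), or 44.4% beside 31.7% of all genes, of which 16.8% were higher. These were Cdipt, the phosphatidylinositol synthase, by 0.63 (67.7 to 104 CPM), Pisd, the phosphatidylserine decarboxylase, by 0.59, Ptdss2, a phosphatidylserine synthase, by 0.46, and Pgs1, which starts cardiolipin synthesis, by 0.29, a call kept in only 2 of 7 other settings and 2 of 10 fits without 1 library. After 4-OHT 3 of 10 passed (beside 13.8% of all genes, 6.45% as lower) and all of them fell, Ptpmt1 by 0.45, Cdipt by 0.31 and Ptdss1 by 0.29 on the log2 scale, of which the last 2 kept their calls in 4 and 2 of 10 such fits. With mice as the block 4 of 10 passed, all as lower (40.0%, beside 25.7% of all genes).

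Fatty acid synthesis supplies the acyl chains, and lipin 1 is known to restrain its activator SREBP. Of 15 genes 6 fell and 2 rose between Fl/+ 4-OHT and Fl/Fl cultures (53.3%, beside 31.7% of all genes). Elovl6, an elongase, fell from 164 to 68.1 CPM, a log2 fold change of -1.25 (SE 0.148, edgeR adjusted p = 0.000242). Acly, which makes acetyl-CoA from citrate, fell by 0.76, Insig1, which holds SREBP back, by 0.58, and the fatty acid synthase Fasn by 0.50. Of the SREBP genes themselves, Srebf1 rose by 0.46 (edgeR adjusted p = 0.0324), a call kept in 5 of 10 fits without 1 library, and Srebf2 fell by 0.30 (549 to 443 CPM, edgeR adjusted p = 0.0441). After 4-OHT, where 4 of 15 passed (26.7%, beside 13.8%), Fasn fell by 0.81 (885 to 504 CPM), Srebf1 by 0.57 and Fads2 by 0.51, and Insig2 rose by 0.54. With mice as the block 6 of 15 passed, 2 as higher and 4 as lower (40.0%, beside 25.7% of all genes). Fasn was thus lower at each step, 1.31 lower on the log2 scale in Fl/Fl 4-OHT than in untreated cultures.

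Of the 12 tested partners of nuclear lipin 1 and fatty acid oxidation genes, 3 fell and 1 rose after 4-OHT (33.3% called, beside 13.8% of all genes), and 1 rose and 2 fell between Fl/+ 4-OHT and Fl/Fl cultures (25.0%, beside 31.7%). Cpt1a, the gate for fatty acids into mitochondria, fell by 0.88 (224 to 122 CPM, edgeR adjusted p = 0.000955), Acadl by 0.80 and Acadm by 0.50, and the coactivator gene Ppargc1b rose by 0.62 at 2.39 to 3.67 CPM, a call kept in only 2 of 10 fits without 1 library. Between Fl/+ 4-OHT and Fl/Fl cultures Cpt2 rose by 0.44, and Pdk4 and Ppargc1b fell by 0.83 and 0.52, calls kept in 4 and 2 of 10 such fits. Whether the 2 effects differ from each other was not tested, since they share the Fl/+ 4-OHT libraries. With mice as the block 5 of the 12 passed after 4-OHT, 1 as higher and 4 as lower (41.7%, beside 25.7% of all genes). Pparg, Hnf4a, Plin1, Plin4, Plin5, Fitm1, Mogat1, Mogat2 and Gpat2 had too few counts to be tested in any comparison.

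**Figure D4:**
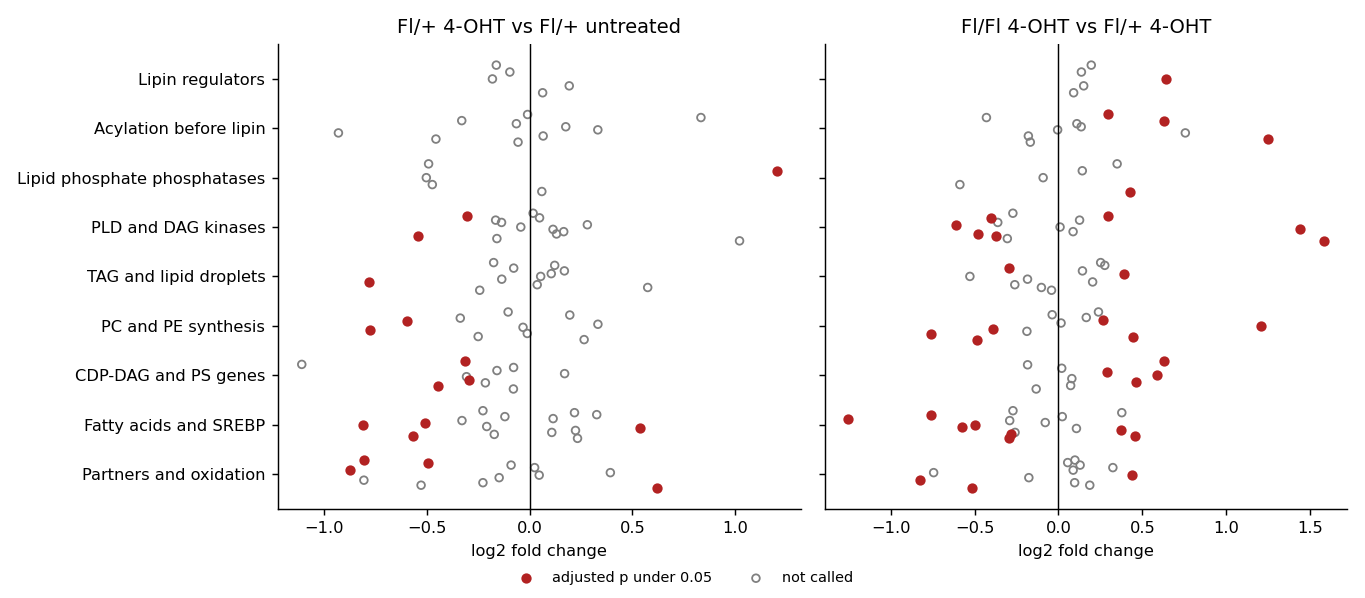
Fitted log2 fold changes of the genes in 9 lists of lipid metabolism around lipin, after 4-OHT (left, 91 genes tested) and between Fl/Fl and Fl/+ 4-OHT cultures (right, 91 genes tested). Each point is a gene, filled red where the edgeR adjusted p is under 0.05; the 17 red points on the left are mostly below 0 (14 of 17), and the 35 on the right are split into 19 above and 16 below 0.

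Markers of several cell types also differed between the groups, and their part in the lipin values was not tested. Of the 10 oligodendrocyte markers 5, Mbp and Mag among them, had group medians in the rising order of Lpin3. Mbp had medians of 8.54, 85.6 and 122 CPM in untreated, Fl/+ 4-OHT and Fl/Fl 4-OHT cultures. In contrast 1, Olig2, had falling medians, and Olig1 had its highest median in untreated cultures. Sox10, Pdgfra and Cspg4 had lower medians in Fl/Fl than in Fl/+ 4-OHT cultures. The sum over the 10 overlapped between the groups (3462 to 4511, 3371 to 4659 and 3587 to 5403 CPM). Culture Fl/Fl 37 stood apart with Mbp at 1013 CPM, and without it the Fl/Fl mean of Mbp was 114 CPM, under the 118 CPM of the Fl/+ 4-OHT group. Without the same culture the log2 fold change of Lpin3 against Fl/+ 4-OHT cultures was 1.26. Of the 8 astrocyte markers 0 had medians in that rising order and 1 had falling medians. Gfap, with 2264 CPM in Fl/Fl 37, had medians of 45.7, 488 and 413 CPM. The sum over the 8 was 6316 to 8419, 5965 to 7552 and 5589 to 9529 CPM.

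Of the 6 ependymal markers 4 had rising medians, of which Ccdc153 and Dnah5 averaged under 1 CPM, while Tmem212 and Pifo were at 0 in all libraries. The sum over the 6, most of it Foxj1, was 28.0 to 65.5, 40.6 to 92.8 and 78.4 to 105 CPM. Of the 10 neuronal markers 2 had rising and 4 had falling medians, with a sum of 900 to 1184, 848 to 1039 and 599.8 to 851 CPM. Of the 8 microglial markers 2 had rising medians, P2ry12 and Cd68, of which Cd68 was the only one of the 8 at 1 CPM or more on average. Their sum was 2.10 to 2.54, 2.501 to 3.95 and 4.16 to 7.85 CPM, so that every Fl/Fl culture lay above every Fl/+ culture, with or without 4-OHT. Most of that sum was Cd68, with means of 1.94, 2.87 and 4.91 CPM. Among all single genes tested, 22.6% did not overlap between Fl/Fl and Fl/+ 4-OHT cultures and 23.1% between Fl/Fl and untreated cultures. The 10 neural stem cell markers held 0 with rising and 4 with falling medians. The 6 endothelial markers held 2 with rising medians, Kdr and, at under 1 CPM, Cdh5, and 0 with falling ones. The endothelial sum was 13.3 to 26.0, 21.6 to 63.8 and 22.2 to 48.4 CPM. Mitochondrially encoded genes took 1.72% to 3.56%, 0.849% to 1.74% and 1.36% to 2.19% of the counts, which is not the order of Lpin3.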

How the data were processed

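Strand-specific poly(A) RNA-seq was done on 15 aNSC cultures. The authors made the files with bcl2fastq 1.8.4, aligned reads to GRCm38 with STAR 2.5.4b and counted uniquely mapped reads per Ensembl gene with featureCounts 1.5.0 (stranded setting). What they deposited are raw counts per gene. Reads mapping to several places are missing from them, and floors cover counting error only. Symbols came from a GENCODE annotation of GRCm38, with 95 of 53801 IDs unnamed. Groups, mouse numbers and sex came from the labels. No 4-OHT dose is given because labels and methods differ on it.

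Each comparison was fitted on its own 10 libraries with edgeR 4.0.16 in R 4.3.3 (filterByExpr with a minimum count of 10, TMM scaling, quasi-likelihood F test without covariates, Benjamini-Hochberg adjustment over all genes tested, called under 0.05). All 3 lipins passed the filter in each comparison. CPM use TMM sizes over all 15 libraries. Exact tests were two-sided on log2(CPM + 0.5), with 252 arrangements (sign-flip, 32). The scripts were tested on simulated data.

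By the labels the 2 Fl/+ groups share their mice. Deviations from the group means over 15435 genes correlated at r of 0.204 to 0.586 within a mouse and at -0.489 to 0.317 between mice, so the mouse number was used as a block in an alternative. Also tried were DESeq2 1.42.0 (Wald test), its size factors in edgeR, library size alone, other filters on low counts, one dispersion estimate for the 15 libraries, the sex on the labels as a covariate, other gene lengths and leaving out each library in turn. The cultures of a group came from separate mice.

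Named genes were the lipins, Trrap, the nearest protein-coding neighbours, the 5 genes closest to each lipin with a mean of at least 1 CPM, 8 genes of the pathway whatever their values, and up to 4 called genes a list with the largest log2 fold changes at 1 CPM or more. Neighbours that did not pass, marker genes, Srebf2 and genes listed as untested were named with their values known. The members, lists and motifs were chosen with earlier results of these data known.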

Additional observations from a re-analysis of the deposited data

Results flagged for a closer look

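Lpin1 in the Fl/+ 4-OHT culture of mouse 24 stood at 274 CPM, far above the other 4 cultures of its group, which lay between 128 and 170 CPM. Its gap to the next culture was 0.712 of the range of the group, just past the critical ratio of 0.71 for 5 samples. Of the 9 groups of lipin values examined this was the only 1, and chance alone gives about 1 such value in 20 groups. The untreated culture of mouse 24 was also the highest of its group, at 191 CPM. Without this library the Lpin1 difference between Fl/Fl and Fl/+ 4-OHT cultures was -0.40 on the log2 scale (edgeR adjusted p = 0.0731).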

How the results depend on the processing

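The lipin differences kept their direction in every alternative run. The lower Lpin1 in Fl/Fl than in Fl/+ 4-OHT cultures lost its call with library size alone (-0.57, edgeR adjusted p = 0.0509), with sex as a covariate (-0.58, adjusted p = 0.0616) and in 7 of 10 fits without 1 library, with a range of -0.75 to -0.40. It was kept in the other 5 settings, the adjusted p over all 7 being 0.0170 to 0.0616. The higher Lpin2 after 4-OHT passed with library size alone (0.28), a shared dispersion (0.22), sex as a covariate (0.23) and the mouse number as a replicate block (0.23), with adjusted p of 0.0316, 0.0260, 0.0465 and 0.0344. With the block 3809 genes passed after 4-OHT against 2044 without it, and 27 genes of the pathway lists against 17. Without 1 library these counts were 1271 to 2522 and 11 to 19, the lowest without Fl/+ 4-OHT 19, and 1311 genes passed without Fl/+ 4-OHT 35. The block changed no other lipin call. The cause of these shifts in calls was not tested. Averaged over the 15 libraries the share of Lpin2 was 28.5%, 29.96% and 30.3%, and that of Lpin3 14.1%, 10.1% and 9.502%, with the longest transcript, the coding length and no length. These shares move because the divisor does. The other counts of calls over all genes and over all listed genes together stayed within 1.5 times their value. Of the values of single named genes, 168 lost and 41 gained a call in an alternative and 2493 did neither. 5 cultures a group, with a smallest exact p of 0.00794, limit the precision of small differences such as those of Lpin2, and the counts do not separate transcripts.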
